A study of Saccharomyces cerevisiae with 58 samples.

Results

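The 37 genes described here encode the budding yeast proteasome and its transcriptional activator RPN4. They comprise 7 genes of the alpha ring and 7 of the beta ring of the 20S core, 10 of the 19S base, 9 of the 19S lid, the assembly factor UMP1, the proteasome-binding proteins ECM29 and BLM10, and RPN4 itself. Members were taken by gene symbol, and each of the 37 symbols matched a single probe set of the array, so 37 of the 5716 Saccharomyces cerevisiae probe sets tested are members. Every member lay above the 95th percentile of the 1746 Schizosaccharomyces pombe probe sets that the chip also carries, a background of 5.10 on the log2 scale, with mean levels between 10.43 (ECM29) and 13.65 (PRE6). Sizes below are given on the log2 scale, where 1 unit is a doubling of the signal.

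The proteasome degrades proteins that carry ubiquitin. Its 20S core is a barrel of stacked rings with the proteases inside the beta rings, and the 19S particle caps the barrel, its lid removing ubiquitin and its base unfolding the substrate with ATPases. In yeast, Rpn4 binds a shared element in the promoters of most proteasome genes and is itself rapidly destroyed by the proteasome, and RPN4 transcription is in turn a target of stress factors such as Yap1 and Hsf1.

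The study compared an rpb6 Q100R mutant with its isogenic parental wild type WY37, to ask whether recruitment of the Rpb4/7 subunits to RNA polymerase II couples mRNA production with mRNA decay under stress. In the mutant, chromosomal RPB6 is deleted and replaced by HIS3, and a single-copy LEU2 plasmid carries the RPB6 gene. Both strains are MATalpha with ura3-52, his3 deletion, lys2 deletion and ade2 markers, and grew at 30 degrees in rich YPD medium until mid-log phase. Each strain was sampled before treatment (0 min) and then along 4 courses: at 5, 10, 15, 25, 35 and 45 min of 0.3 mM H2O2, and at 20, 40, 80, 100, 120, 140 and 180 min of 0.1% MMS, a DNA alkylating agent. The reference decay course, sampled 5, 10, 20, 30, 40 and 50 min after transcription was blocked with 1,10-phenanthroline, was run also with 0.3 mM H2O2 added 7 min before the block. Each of the 8 courses is 1 culture with 1 array per time point, so a difference between courses cannot be told apart from a difference between cultures. For untreated cells each strain has 3 arrays, 1 from the start of each experiment except the decay in H2O2. The mutant grows more slowly than its parent.

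The 58 arrays were normalized in 3 sets, 14 H2O2, 16 MMS and 28 decay arrays, and levels were compared within a set. The alpha-cell genes MFALPHA1, MFALPHA2 and STE3 lay between 10.52 and 14.06 on the 0 min arrays, and the a-cell genes MFA1, MFA2 and STE2 between 5.74 and 9.04. The value of 10.52 was MFALPHA2 on the 0 min array of the mutant MMS course. MFALPHA2 had 13.06 and 12.96 in untreated mutant cells of the H2O2 and decay experiments, and 13.775 in the wild type MMS experiment. Every mutant change in MMS is taken from that 0 min array. RPO26, the gene of Rpb6, averaged 12.97 ± 0.36 in the mutant and 13.58 ± 0.17 in the wild type, and LEU2, the plasmid marker, averaged 14.26 ± 0.09 in the mutant and 13.73 ± 0.15 in the wild type (SD, n = 3 each). HIS3, put in place of chromosomal RPB6, averaged 11.68 ± 0.64 in the mutant and 10.87 ± 0.24 in the wild type (SD, n = 3 each). The HIS3 signal of the wild type lay above background although the study gives both strains a his3 deletion. It reached 13.08 at 20 min of MMS, and its source was not tested. RMA sets all arrays to a common distribution, so a global difference in mRNA content between the strains is not visible in these levels. A lower level of an mRNA in bulk culture cannot be told apart from fewer cells that hold it.

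RPN4 responded early to H2O2 in both strains, at the first time sampled. In the mutant its log2 level was 11.93 at 0 min, 12.86 at 5 min, 12.74 at 10 min, 12.50 at 15 min, 12.12 at 25 min, 11.84 at 35 min and 11.77 at 45 min. In the wild type it was 11.61, 12.58, 12.56, 12.37, 11.65, 11.31 and 11.19 at the same times. The highest array was that at 5 min in both courses, 0.94 above 0 min in the mutant (1.92-fold) and 0.97 above 0 min in the wild type (1.96-fold). RPN4 rose in the mutant (adjusted p = 0.0249) and in the wild type (adjusted p = 0.00202, limma, moderated F-test of a spline with 3 df), and the difference between the strains did not pass (adjusted p = 0.735). In the mutant the call was lost with a spline of 2 df (adjusted p = 0.241) and without the 10 min arrays (adjusted p = 0.209).

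The decay experiments hold a separate reading of the early response, from other cultures, since their 0 min arrays were taken after 7 min of H2O2 or with none. RPN4 stood at 12.84 with H2O2 and 11.99 without it in the mutant, and at 12.65 with H2O2 and 11.85 without it in the wild type. Both differences, 0.85 in the mutant and 0.80 in the wild type, are near the values of the 5 min arrays, but each rests on 1 array per state and has no test. The 36 other genes had a median difference of -0.02 in the mutant (12 of 36 above 0, median of all tested probe sets -0.06) and of 0.06 in the wild type (28 of 36 above 0, all tested probe sets -0.07).

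The subunit genes followed RPN4 by about 20 min, with larger medians in the wild type than in the mutant. The highest array was that at 25 min for 28 of the 36 genes in the mutant and for 32 of 36 in the wild type. The median change of the 36 genes from 0 min was -0.06, -0.01, 0.07, 0.15, 0.09 and -0.09 at 5, 10, 15, 25, 35 and 45 min in the mutant. In the wild type it was -0.05, 0.09, 0.23, 0.37, 0.22 and -0.04 at those times. At 25 min all 36 genes lay above their 0 min level in both strains, against 42.0% of all tested probe sets in the mutant and 48.0% in the wild type, and by 45 min 30 of 36 in the mutant and 25 of 36 in the wild type lay below it. In the plot of the H2O2 courses, the RPN4 line was falling before most subunit lines reached their maximum.

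**Figure D1:**
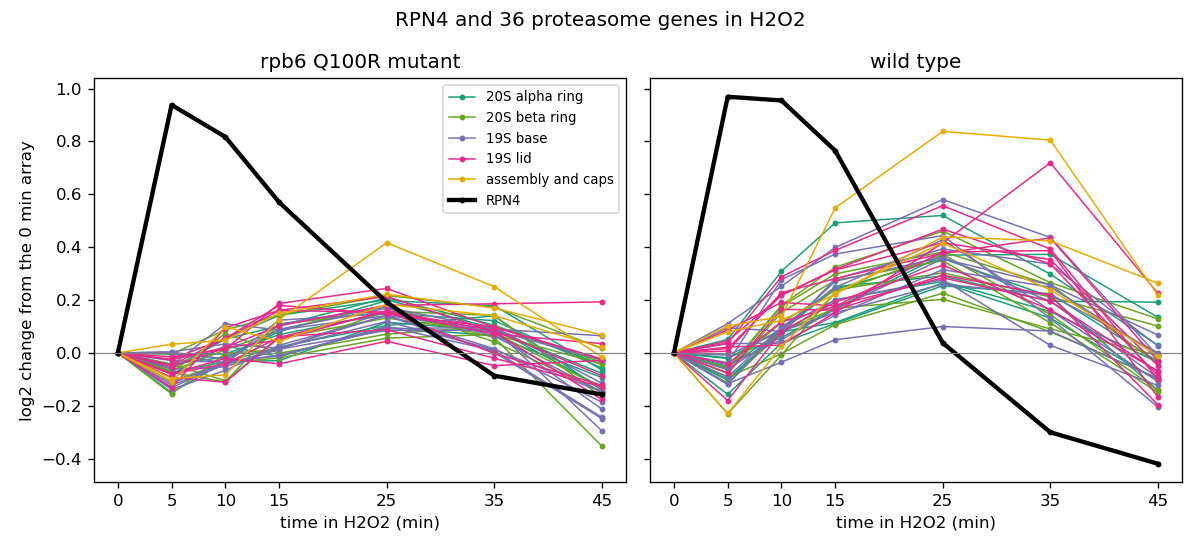
Log2 change from the 0 min array (vertical axis) against time in H2O2 in minutes (horizontal axis) for RPN4 (thick black line) and 36 proteasome genes coloured by subcomplex, mutant left and wild type right; each point is 1 array. RPN4 peaked at 5 min in both strains, and the median of the other genes reached 0.15 in the mutant and 0.37 in the wild type at 25 min.

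In the mutant, 5 of the 37 genes rose in H2O2 and 1 fell, against 12.5% of tested probe sets higher and 10.2% lower (22.7% in all). Of the wild type genes, 35 of 37 rose and none fell, against 28.7% higher and 27.6% lower (56.3% in all). On the same arrays the test called 0.974% of S. pombe probe sets in the mutant and 6.64% in the wild type. The size of a course is its largest difference from 0 min, and its median over the members was 0.14 in the mutant (all probe sets, -0.11) and 0.37 in the wild type (all probe sets, -0.10). Sizes keep their sign, so rises and falls offset each other in the medians of all probe sets. Taken without their sign, the sizes of all probe sets had medians of 0.25 in the mutant and 0.37 in the wild type. The genes that rose in the mutant were RPN4, ECM29, BLM10, RPN11 and RPT2. The genes that did not pass in the wild type were RPN13, a ubiquitin receptor of the base, with changes between -0.12 and 0.10, and PUP3, a structural beta subunit, with changes between -0.11 and 0.20. Leaving out the arrays at 10 min gave a count of 0 in the mutant, and leaving out those at 5 min gave 7. With a prior variance that follows the level it was 16 (9 higher and 7 lower). The count in the wild type was 18 without the 25 min arrays.

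Of the core, no alpha or beta ring gene passed the test in the mutant, where 22.7% of tested probe sets did. In the wild type 7 of 7 alpha and 6 of 7 beta ring genes rose, where 28.7% of tested probe sets did. The test of the strain difference, given below, called none of them. PRE8, an alpha ring subunit, had levels of 12.72, 12.66, 12.77, 12.86, 12.92, 12.81 and 12.59 over the mutant course. The wild type levels of PRE8 were 12.49, 12.54, 12.80, 12.98, 13.01, 12.79 and 12.52. PRE8 rose by 0.52 in the wild type (adjusted p = 0.00139, limma) and reached 0.20 in the mutant without passing the test (adjusted p = 0.0611). PUP1, the beta subunit with trypsin-like activity, rose by 0.37 at 25 min in the wild type (adjusted p = 0.0165, limma), and its largest difference in the mutant was -0.35 at 45 min (adjusted p = 0.0612).

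In the 19S particle, 1 base gene rose and 1 fell in the mutant, against 9 of 10 that rose in the wild type. Of 9 lid genes, 1 rose in the mutant and 9 in the wild type. Over all tested probe sets 12.5% rose and 10.2% fell in the mutant, and 28.7% rose in the wild type. The strain difference was called for none of these genes. RPT2, the ATPase that opens the gate of the core, had mutant levels of 12.23, 12.23, 12.21, 12.32, 12.40, 12.29 and 12.08 over the course. Its wild type levels were 11.81, 11.92, 12.06, 12.21, 12.39, 12.24 and 11.80, so the strains were 0.42 apart at 0 min and level at 25 min. RPT2 rose in the mutant by 0.17 (adjusted p = 0.0244) and in the wild type by 0.58 (adjusted p = 0.000192, limma). RPN11, the deubiquitinase of the lid, rose by 0.21 in the mutant (adjusted p = 0.0471) and by 0.56 in the wild type (adjusted p = 0.00125, limma).

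A few genes of the 19S particle followed other time courses. RPN10, a ubiquitin receptor, was the member that fell in the mutant, with 11.94 at 45 min and 12.24 at 0 min (adjusted p = 0.0105, limma). It stood 0.17 above 0 min at 25 min in the mutant, and that became its largest difference without the 45 min arrays, where the call was lost (adjusted p = 0.163). RPN10 rose by 0.36 at 25 min in the wild type (adjusted p = 0.00263, limma). SEM1, the small lid protein, was among 4 of 36 genes highest at 35 min in the wild type, with 11.90 at 0 min, 12.31 at 25 min and 12.62 at 35 min (0.72, adjusted p = 0.0031, limma), and in the mutant it moved between 12.05 and 12.27 (adjusted p = 0.267). The members with the smallest sizes in the mutant were RPN5, a lid scaffold (-0.08), and RPN2, a base scaffold (0.09).

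After RPN4, ECM29 had the largest change in both strains. ECM29, a quality control protein of assembled proteasomes, had levels of 9.85, 9.76, 9.77, 9.98, 10.27, 10.10 and 9.84 in the mutant. Its levels in the wild type were 9.79, 9.89, 9.93, 10.34, 10.63, 10.60 and 10.01, above those of the mutant at every time from 5 min on. ECM29 rose by 0.42 in the mutant (adjusted p = 0.0117) and by 0.84 in the wild type (adjusted p = 0.000258, limma), 1.34-fold and 1.79-fold. BLM10, an alternative cap of the core, rose by 0.22 in the mutant (adjusted p = 0.0487) and by 0.44 in the wild type (adjusted p = 0.000738, limma), and the mutant call was lost in 11 alternative settings. UMP1, the chaperone of core maturation, reached 0.18 in the mutant (adjusted p = 0.418) and rose by 0.42 in the wild type (adjusted p = 0.0157, limma). The wild type call of UMP1 was lost without the 10 min or the 25 min arrays (adjusted p = 0.0657 and 0.127).

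The test of the strain difference itself called none of the 37 genes in H2O2, where 1.24% of tested probe sets passed (0.227% higher and 1.01% lower, limma, lowest adjusted p of a member 0.0798 for RPT2). At an unadjusted p under 0.05, 4 of 37 passed. The change was smaller in the mutant for 35 of 36 genes at 10 min, 36 of 36 at 15 min and 35 of 36 at 25 min, against 48.1%, 52.4% and 53.3% of all tested probe sets. Its median, mutant minus wild type, was -0.22 at 25 min (all tested probe sets, -0.02). These changes all rest on the same 0 min array of each strain, where the members stood higher in the mutant by a median of 0.18. The levels themselves differed by a median of 0.15 at 5 min, -0.02 at 25 min and 0.13 at 45 min, so the strains were closest where the wild type peaked. Which of the 2 arrays at 0 min sets this difference was not tested.

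**Figure D2:**
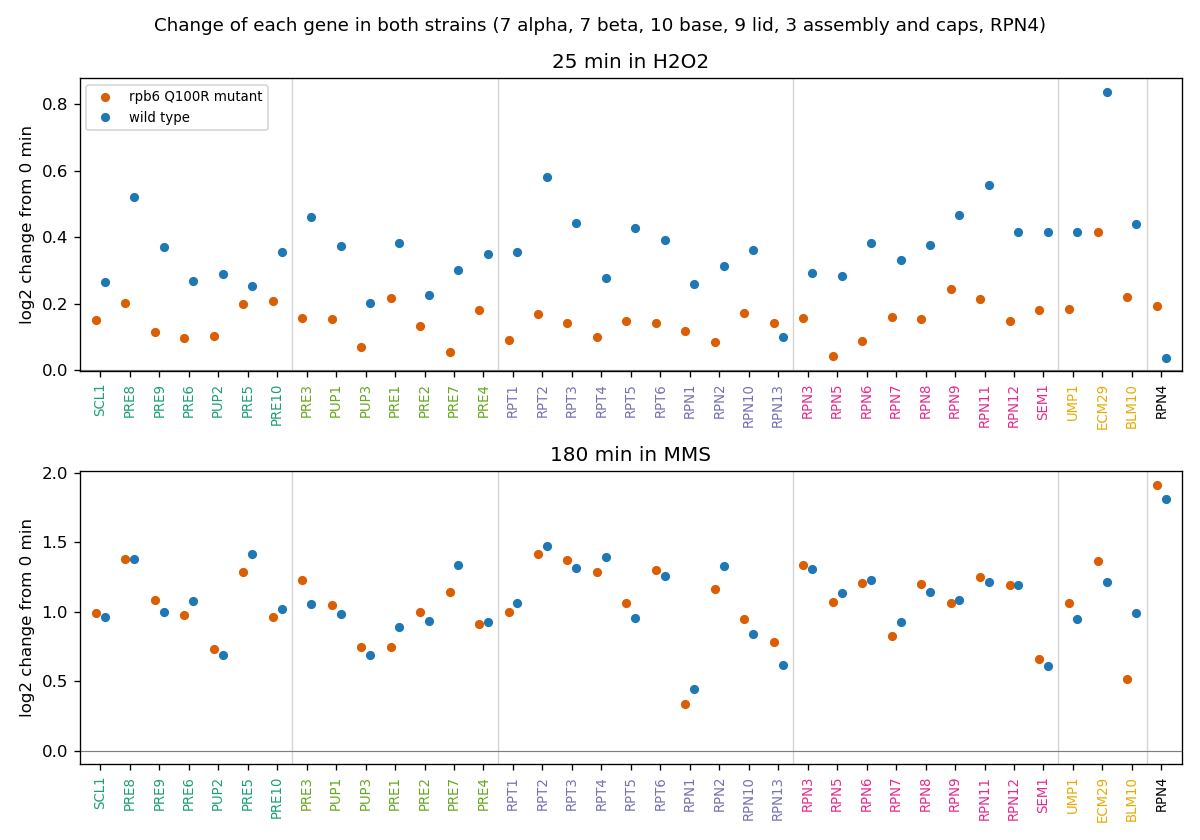
Log2 change from the 0 min array (vertical axis) for each gene (horizontal axis, grouped by subcomplex) at 25 min in H2O2 (top) and 180 min in MMS (bottom), mutant in orange to the left of wild type in blue; each point is 1 array against 1 array. At 25 min the mutant change was below that of the wild type for 35 of 36 genes other than RPN4, and at 180 min in MMS for 18 of 36.

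MMS gave a larger and lasting response, with close medians in both strains. All 37 genes rose in the mutant and all 37 in the wild type, where 44.6% of tested probe sets were higher and 39.2% lower in the mutant (83.9% in all) and 45.8% higher and 41.5% lower in the wild type (87.3% in all). The median size was 1.07 in the mutant (all probe sets, 0.25) and 1.09 in the wild type (all probe sets, 0.24). Taken without their sign, the sizes of all probe sets had medians of 0.90 in the mutant and 0.95 in the wild type. The count of called members stayed at 37 in either strain with each time point left out in turn. The adjusted p of a member was at most 0.00843 in the mutant (RPN1) and 0.00724 in the wild type (RPN1, limma). On the same arrays the test also called 17.6% of S. pombe probe sets in the mutant and 14.4% in the wild type, so low signals also moved with time in MMS.

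RPN4 again led. Its mutant levels were 11.98 at 0 min, 12.79 at 20 min, 13.02 at 40 min, 13.34 at 80 min, 13.46 at 100 min, 13.62 at 120 min, 13.73 at 140 min and 13.90 at 180 min. Its wild type levels were 11.88, 12.72, 12.67, 13.10, 13.35, 13.61, 13.63 and 13.69 at these times. At 20 min RPN4 was already 0.81 above 0 min in the mutant and 0.84 in the wild type, while the median of the 36 other genes was 0.06 in the mutant and 0.13 in the wild type. RPN4 rose by 1.92 in the mutant (3.77-fold, adjusted p = 1.8e-05) and by 1.81 in the wild type (3.51-fold, adjusted p = 1.68e-05, limma), each at the last time point. Unlike in H2O2, the RPN4 level did not return towards its 0 min value in the 180 min sampled.

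The 36 other genes climbed together, and their median then stayed high. Their median change at 20, 40, 80, 100, 120, 140 and 180 min was 0.06, 0.53, 0.90, 0.97, 1.04, 1.05 and 1.06 in the mutant and 0.13, 0.56, 0.87, 0.95, 1.04, 1.04 and 1.06 in the wild type. From 40 min on every one of the 36 lay above its 0 min level in both strains. The highest array was that at 180 min for 29 of 36 in the mutant and 25 of 36 in the wild type. By subcomplex, the median at 180 min in the mutant was 0.99 for the alpha ring, 1.00 for the beta ring, 1.11 for the base and 1.19 for the lid. In the wild type it was 1.02 for the alpha ring, 0.94 for the beta ring, 1.16 for the base and 1.14 for the lid.

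**Figure D3:**
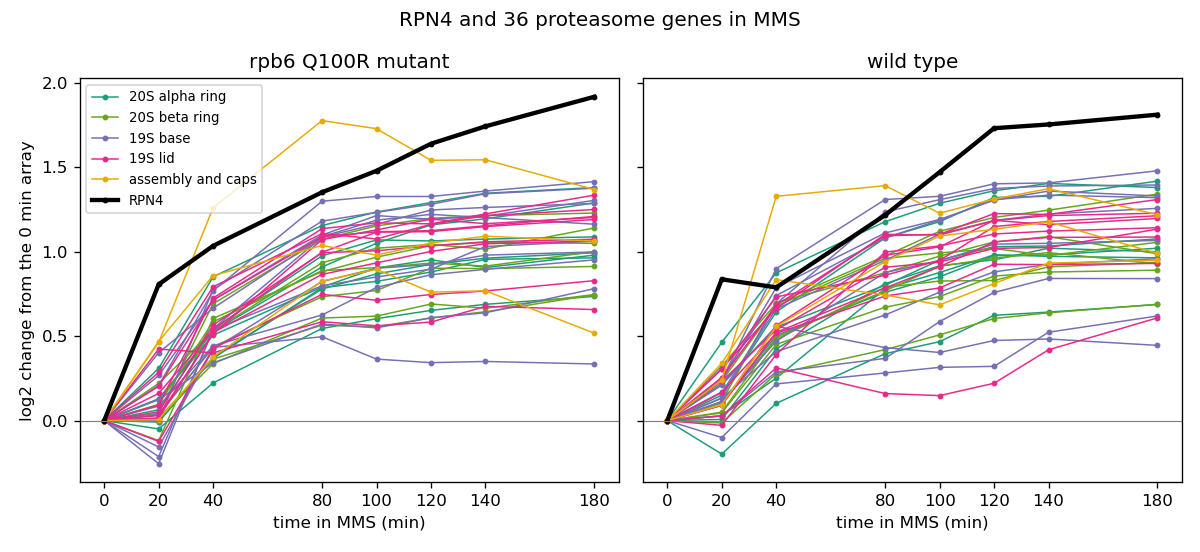
Log2 change from the 0 min array (vertical axis) against time in MMS in minutes (horizontal axis) for RPN4 (thick black line) and 36 proteasome genes coloured by subcomplex, mutant left and wild type right; each point is 1 array. At 20 min RPN4 was 0.81 above 0 min in the mutant and 0.84 in the wild type, and from 40 min on all 36 other genes lay above 0 in both strains.

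Within this common rise the sizes of the 36 genes ran from 0.50 (RPN1) to 1.78 (ECM29) in the mutant and from 0.56 (RPN1) to 1.48 (RPT2) in the wild type. RPT2 was among the largest, with 12.48, 12.69, 13.25, 13.78, 13.81, 13.81, 13.84 and 13.90 in the mutant (1.41, adjusted p = 1.63e-06) and 12.33, 12.57, 13.23, 13.64, 13.66, 13.73, 13.74 and 13.81 in the wild type (1.48, adjusted p = 1.31e-06, limma). RPN1, the scaffold of the base that binds ubiquitin-like domains, was the smallest, with sizes of 0.50 at 80 min in the mutant and 0.56 at 40 min in the wild type. Its level was flat after 40 min in both strains. PRE5, an alpha ring subunit, rose by 1.29 in the mutant and by 1.42 in the wild type.

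ECM29, SEM1 and BLM10 departed from the common time course. ECM29 was highest at 80 min in both strains, with 10.18, 10.65, 11.44, 11.96, 11.91, 11.72, 11.73 and 11.55 in the mutant and 10.36, 10.60, 11.68, 11.75, 11.59, 11.67, 11.73 and 11.58 in the wild type. It rose by 1.78 in the mutant (3.42-fold) and by 1.39 in the wild type (2.62-fold). SEM1 stood 0.58 above 0 min at 80 min in the mutant and 0.16 in the wild type, and its size was 0.68 in the mutant and 0.61 in the wild type. RPN10 rose by 0.95 in the mutant and 0.84 in the wild type, UMP1 by 1.09 in the mutant and 0.95 in the wild type, and BLM10 by 0.89 in the mutant and 1.18 in the wild type. BLM10 then fell, from 12.25 at 100 min to 11.87 at 180 min in the mutant. In the wild type it went from 12.29 at 140 min to 12.10 at 180 min.

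The strain difference called no member in MMS, where 3.32% of tested probe sets passed (1.75% higher and 1.57% lower), and no member reached an unadjusted p of 0.05 (limma). The median difference of the change, mutant minus wild type, lay between -0.06 and 0.05 at the 7 time points. The largest were BLM10, -0.47 at 180 min (adjusted p = 0.323), and ECM29, 0.50 at 100 min (adjusted p = 0.84). The smallest were RPN9 and RPN12, lid subunits, at 0.08 and 0.09. RPN4 had 0.25 at 40 min (adjusted p = 0.913).

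The sizes of the members were ordered much the same way in both strains in MMS. Across the 36 genes, which are not independent replicates, the changes in the mutant and the wild type had a Pearson correlation of 0.88 at 180 min in MMS (Spearman 0.89) and 0.72 at 25 min in H2O2 (Spearman 0.58). Within a strain, the change at 25 min in H2O2 and at 80 min in MMS had a correlation of 0.39 in the mutant (Spearman 0.09) and 0.48 in the wild type (Spearman 0.32). The points of a course share its 0 min array.

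In untreated cells the members were slightly higher in the mutant, but none passed the test, against 1.91% of tested probe sets (0.892% higher and 1.01% lower, limma with the experiment as a block, lowest adjusted p 0.109 for PRE7). At an unadjusted p under 0.05, 8 of 37 passed. The difference was positive for 36 of 37 members, with a median of 0.13, against -0.02 over all tested probe sets. It was positive for 36, 28 and 35 of 37 in the H2O2, MMS and decay experiments, with medians of 0.18, 0.08 and 0.14. In all 3 experiments it was positive for 27 of 37 members, against 22.0% of all tested probe sets.

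RPN4 had untreated levels of 11.93, 11.98 and 11.99 in the mutant and 11.61, 11.88 and 11.85 in the wild type. Within the H2O2, MMS and decay experiments RPN4 differed by 0.32, 0.10 and 0.15, mutant minus wild type, a mean difference of 0.19 ± 0.08 (SE, adjusted p = 0.209, limma). Its means over these sets, which were normalized apart, were 11.97 ± 0.04 in the mutant and 11.78 ± 0.15 in the wild type (SD, n = 3 each). PRE7, a beta ring subunit, had 12.91, 12.84 and 12.85 in the mutant and 12.55, 12.63 and 12.59 in the wild type, a difference of 0.28 ± 0.07 (SE). RPT2 had the largest difference, 0.29 ± 0.08 (SE, adjusted p = 0.124, limma), with 0.42, 0.15 and 0.29 in the 3 experiments. PRE9, the alpha subunit that yeast can do without, had the smallest, 0.02 ± 0.08, and ECM29 alone was lower on average, -0.05 ± 0.08 (SE).

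**Figure D4:**
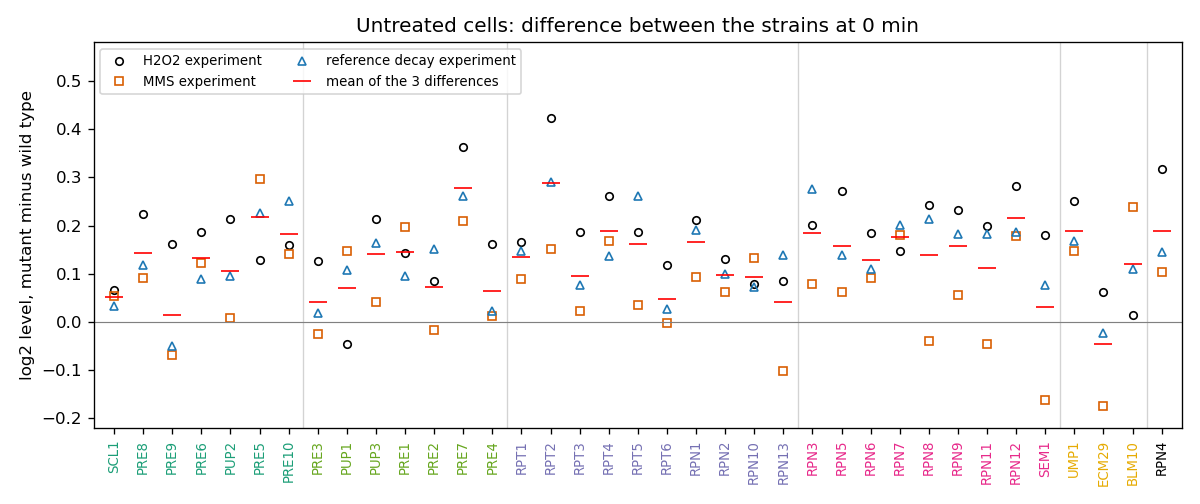
Difference in log2 level, mutant minus wild type (vertical axis), in untreated cells for each of 37 genes (horizontal axis, grouped by subcomplex), with 1 symbol per experiment and a red bar for the mean of the 3. The means lay between -0.05 (ECM29) and 0.29 (RPT2), and 36 of 37 were above 0.

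After the block of transcription, the levels measure each mRNA against the average mRNA, since every array is normalized to the same distribution. Where no new mRNA was made, a positive slope of the log2 level on time therefore stands for an mRNA that outlasted the average one. Synthesis after the block was not measured. Some deposited ratios to 0 min rose above 1, among them that of ECM29 in the wild type in H2O2 (1.11 at 10 min). The slopes and half-lives below thus hold decay together with any synthesis that went on. In the reference course the median slope of the 36 genes was 0.0029 log2 units per min in the mutant and 0.0101 in the wild type, and 28 of 36 in the mutant and 35 of 36 in the wild type were positive, against 49.5% and 54.4% of all tested probe sets. The slope was lower in the mutant for 35 of 37 members. Over all tested probe sets the median slope difference was -0.0012 log2 units per min, and the share with a lower slope was not counted. Of the members, 25 of 37 passed the test, all lower, where 19.1% of tested probe sets were lower and 17.4% higher (36.6% in all, limma). The count was 16 without the 50 min arrays and between 16 and 25 over the time points left out. A difference between these courses is a difference between 2 cultures.

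The beta ring was the subcomplex where every gene passed, 7 of 7, followed by 7 of 10 base, 6 of 9 lid, 2 of 3 assembly and cap genes and 3 of 7 alpha ring genes. All were lower in the mutant, as were 19.1% of tested probe sets. ECM29 had the largest difference, -0.0179 ± 0.0033 log2 units per min (SE, adjusted p = 0.000215, limma). Its level from 0 to 50 min was 9.83, 9.83, 9.89, 9.87, 10.05, 9.91 and 9.89 in the mutant and 9.86, 9.85, 9.76, 10.07, 10.16, 10.52 and 10.80 in the wild type. The gap between the strains was widest at 40 and 50 min. RPN11 had -0.0113 ± 0.0024 (adjusted p = 0.000744) and PUP1 -0.0112 ± 0.0030 log2 units per min (SE, adjusted p = 0.00629, limma).

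PUP1 was the shortest-lived subunit mRNA in every course. Its level was 12.56, 12.54, 12.38, 12.48, 12.24, 12.004 and 12.11 in the mutant, and 12.46, 12.37, 12.30, 12.14, 12.23, 12.39 and 12.45 in the wild type. UMP1 had a slope difference of -0.0066 ± 0.0020 log2 units per min (SE, adjusted p = 0.0112, limma), and its call was lost without the 40 min or the 50 min arrays. RPN10 (-0.0070, adjusted p = 0.0546), BLM10 (-0.0030, adjusted p = 0.526) and RPT6, an ATPase of the base (-0.0021, adjusted p = 0.228), did not pass, nor did SEM1 (0.0002, adjusted p = 0.949). In the reference course of the mutant, the arrays at 10 and 20 min were out of order. Along the change from 0 to 50 min over all tested probe sets they stood at 31.8% and 9.01%. Those of the wild type stood at 26.6% and 51.0%, and those of the mutant decay course in H2O2 at 13.1% and 32.3%. Whether the 2 mutant reference arrays were exchanged was not tested, and they were kept under their labels. Without these 2 arrays the count of called members was again 25.

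After the block, the RPN4 level at 50 min was above that at 0 min by 1.06 in the mutant, the largest difference of the 37 members there, and by 0.71 in the wild type, where ECM29 (0.94) and RPT2 (0.94) were among the members above it. In the mutant reference course it was 11.99, 11.95, 12.26, 11.81, 12.78, 12.97 and 13.05 from 0 to 50 min, and in the wild type 11.85, 11.85, 12.16, 12.74, 12.93, 12.71 and 12.56. On the authors' ratio scale, where 0 min is 1, RPN4 stood at 0.514 at 20 min and 0.545 at 50 min in the mutant, and at 1.08 at 20 min and 0.429 at 50 min in the wild type. The wild type ratio was 0.876 at 5 min and 0.950 at 10 min before that value above 1. The mutant value at 20 min comes from an array out of order with its course, so the contrast between the strains at 20 min rests on that array. An exponential fitted RPN4 poorly in both reference courses (R2 of 0.598 in the mutant and 0.56 in the wild type), so no half-life is given for it. Its slopes were 0.0244 in the mutant and 0.0181 in the wild type, a difference of 0.0062 ± 0.0071 log2 units per min (SE, adjusted p = 0.528, limma).

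Half-lives were fitted to the deposited ratios, which the authors scaled at each time point so that the genome mean decays as in an earlier profile. Every course was scaled to that same profile, so a half-life is relative to the average mRNA of its own course. A global difference in decay between the strains is not visible in these values. The exponential had an R2 above 0.9 for all 36 genes in the mutant and the wild type reference courses. The median half-life in the reference course was 28.1 min in the mutant (PUP1 20.4 to RPN6 33.1 min) and 33.5 min in the wild type (PUP1 23.1 to RPN11 51.2 min). Of the 5716 tested probe sets, 4902 in the mutant and 4601 in the wild type had an R2 above 0.9. Their median was 24.5 min in the mutant and 23.3 min in the wild type. A line through the log2 ratios gave medians in the other order, 25.5 min in the mutant and 26.6 min in the wild type. The line medians cover every tested probe set with a positive half-life, so the 2 orders rest on different probe sets. The fitted half-life was shorter in the mutant for 34 of 36 genes, with SEM1 (26.2 min in the mutant, 25.9 min in the wild type) and BLM10 (26.5 min in the mutant, 25.4 min in the wild type) the exceptions. The share of all tested probe sets with a shorter half-life in the mutant was not counted. ECM29 had 28.1 min in the mutant and 47.5 min in the wild type, RPT2 32.9 min in the mutant and 49.4 min in the wild type, and RPN11 31.8 min in the mutant and 51.2 min in the wild type.

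By subcomplex the medians lay close together in each strain. In the reference course the median in the mutant was 28.03 min for the alpha ring, 25.8 min for the beta ring, 27.4 min for the base and 29.2 min for the lid. The wild type medians were 33.8 min for the alpha ring, 33.3 min for the beta ring, 31.6 min for the base and 36.5 min for the lid. In either strain the range within a subcomplex was wider than the gap between these medians.

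**Figure D5:**
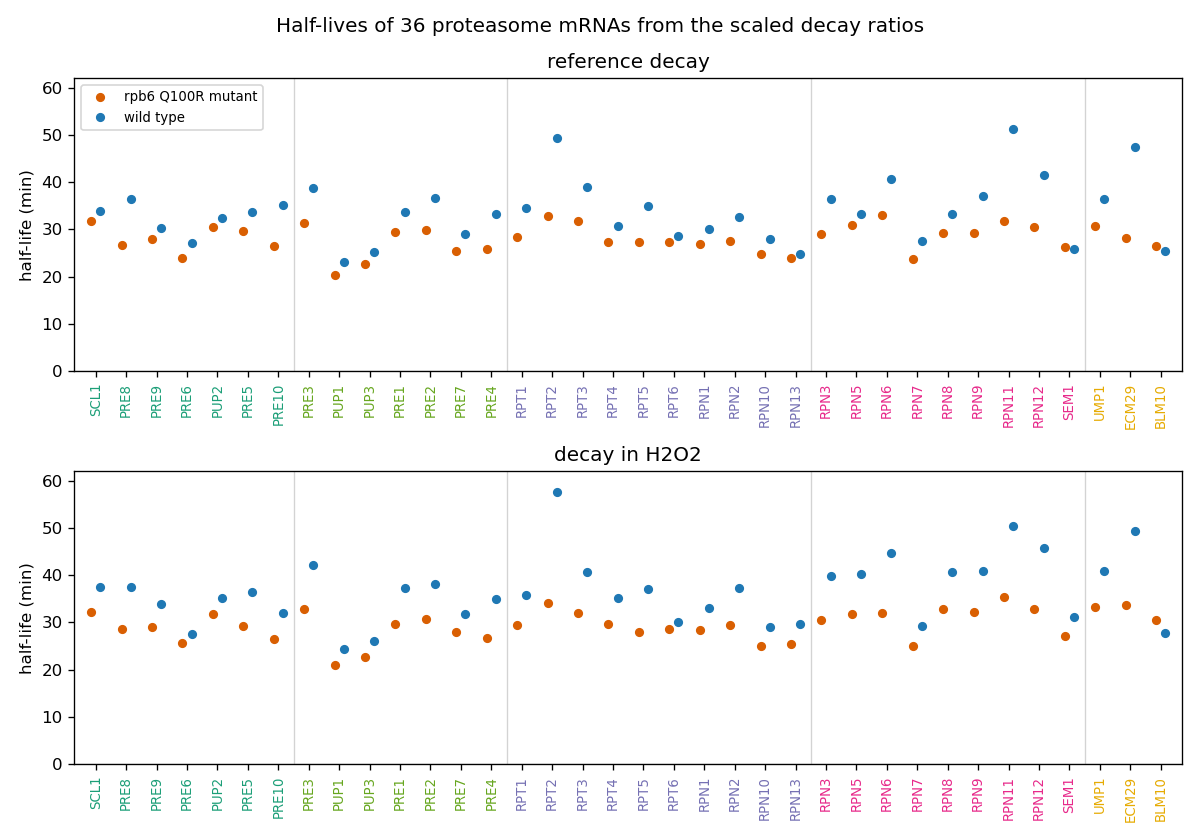
Fitted half-life in minutes (vertical axis, from 0) of 36 mRNAs (horizontal axis, grouped by subcomplex) in the reference decay course (top) and the decay course in H2O2 (bottom), mutant in orange to the left of wild type in blue; each point is a fit to 7 arrays. Mutant points lay below those of the wild type for 34 of 36 genes in the reference course, a share not counted over all tested probe sets. The R2 was under 0.9 in 1 fit (ECM29, wild type in H2O2).

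With H2O2 before the block, 1 member in 1 strain passed the test of a change in decay. The median half-life in H2O2 was 29.5 min in the mutant and 36.5 min in the wild type, and it was shorter than in the reference course for 4 of 36 genes in the mutant and 2 of 36 in the wild type. In H2O2, 5344 of the tested probe sets in the mutant and 4776 in the wild type had an R2 above 0.9. Their median was 25.0 min in the mutant and 24.4 min in the wild type. These were also longer than in the reference course (24.5 min in the mutant and 23.3 min in the wild type), though over other probe sets. The line, over every tested probe set with a positive half-life, gave 25.2 min in the mutant and 26.9 min in the wild type in H2O2. That was again the other order of strains, with 25.5 and 26.6 min in the reference course. The share of all probe sets with a shorter half-life in H2O2 was not counted. In the test of slopes, none of the 37 members passed in the mutant, where 2.73% of tested probe sets did (1.33% higher and 1.4% lower, limma, lowest adjusted p 0.22, 3 members at an unadjusted p under 0.05). In the wild type 1 of 37 passed, against 10.3% of tested probe sets (5.35% higher and 4.93% lower). That gene was RPN8, a lid subunit paired with RPN11, whose slope was higher in H2O2 by 0.0060 ± 0.0017 log2 units per min (SE, adjusted p = 0.0247, limma). Its half-life was 32.8 min in H2O2 and 29.2 min in the reference course in the mutant, and 40.7 min in H2O2 and 33.3 min in the reference course in the wild type. The RPN8 call was lost without the 0, 10, 30, 40 or 50 min arrays. The smallest differences were those of PRE3 and PUP3 in the mutant and of PRE4 and PRE5 in the wild type.

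RPN4 was the member whose slope after the block in H2O2 was furthest from its slope in the reference course, without passing the test in either strain. After 7 min of H2O2 and the block, its level was 12.84, 12.79, 12.72, 12.70, 12.86, 13.06 and 13.26 in the mutant and 12.65, 12.59, 12.48, 12.89, 13.16, 13.12 and 12.83 in the wild type. The ratio at 50 min was 0.348 in the mutant and 0.297 in the wild type, each below its reference value given above. Its slope in H2O2 minus that in the reference course was -0.0156 ± 0.0071 log2 units per min in the mutant (adjusted p = 0.226) and -0.0086 ± 0.0071 in the wild type (SE, adjusted p = 0.544, limma). The change of slope in H2O2 differed between the strains for none of the 37 members, where 0.647% of tested probe sets passed (0.56% higher and 0.0875% lower, limma), and none reached an unadjusted p of 0.05. RPN4 had -0.0070 ± 0.0100 and ECM29 0.0074 ± 0.0047 log2 units per min (SE), the lowest and the highest, and RPT1 and RPN2, an ATPase and a scaffold of the base, had the smallest differences.

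Of 24 further genes of the pathway, 6 encode shuttle factors that carry ubiquitinated proteins to the proteasome, and Cdc48 with its cofactors. In H2O2, 1 of the 6 rose and 2 fell in the mutant (all tested probe sets, 12.5% higher and 10.2% lower), and all 6 rose in the wild type (28.7% higher and 27.6% lower). The direction of a call is the sign of the largest difference from 0 min, and a course can hold changes both ways. DDI1, a ubiquitin receptor with a protease fold, rose by 0.76 in the mutant (adjusted p = 0.000125) and by 1.24 in the wild type (adjusted p = 9.68e-06, limma), at 15 min in both. In MMS 6 of 6 rose in both strains, where 44.6% of tested probe sets were higher in the mutant and 45.8% in the wild type, with DDI1 at 3.29 in the mutant and 3.41 in the wild type. UFD1, a cofactor of the Cdc48 segregase, rose in MMS by 2.54 in the mutant and by 2.36 in the wild type. In H2O2 its largest difference was a fall of 0.44 at 45 min in the mutant and a rise of 0.75 at 25 min in the wild type. UFD1 was above 0 min at 25 min and below it at 45 min in both strains, with 0.19 at 25 min in the mutant and -0.11 at 45 min in the wild type. Its strain difference was not called in either stress.

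Among 11 assembly chaperones and associated factors, 1 rose in H2O2 in the mutant (22.7% of tested probe sets called), and 5 rose and 1 fell in the wild type (56.3% called). In MMS 10 rose and 1 fell in the mutant, where 83.9% of tested probe sets were called, and 9 rose and 2 fell in the wild type, where 87.3% were. HUL5, a ubiquitin ligase of the proteasome, rose in MMS by 2.54 in the mutant and by 2.96 in the wild type. POC4, a chaperone of alpha ring assembly, fell instead, by 0.94 in the mutant and by 1.26 in the wild type, both at 80 min.

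Of 7 regulators, YAP1, the oxidative stress activator, was up by 5 min in H2O2, like RPN4. Its levels were 9.75, 10.94, 11.03, 10.98, 10.49, 9.89 and 9.62 in the mutant and 9.54, 10.79, 10.88, 10.84, 10.52, 9.93 and 9.16 in the wild type (1.28 at 10 min in the mutant, adjusted p = 0.00634, and 1.34 at 10 min in the wild type, adjusted p = 0.00147, limma). HSF1, the heat shock factor, rose in MMS by 1.86 in the mutant and by 2.11 in the wild type. UBR2, the ubiquitin ligase that marks Rpn4 for destruction, was called in the strain difference in MMS (-1.02 at 180 min, adjusted p = 0.0349, limma). It was 1 gene of 24, a share near the 3.32% of all tested probe sets called there. Its level was 9.45, 9.40, 9.50, 9.08, 9.12, 8.88, 8.79 and 8.50 in the mutant, where it fell by 0.96, and 9.06, 8.97, 9.31, 9.04, 9.09, 9.23, 9.16 and 9.13 in the wild type, where it did not pass the test (adjusted p = 0.84).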

How the data were processed

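The authors hybridised total RNA to Affymetrix Yeast 2.0 arrays and deposited log2 levels made with RMA, and for the decay courses a deposited linear ratio to 0 min, which the authors scaled to an earlier profile of the genome mean. Their own fold-change columns of the stress courses (30) were not used. Genes were named through the platform's probe annotation (5498 of 5716 tested probe sets with 1 gene, 218 with none), and 184 control probe sets were left out. limma 3.58.1 in R 4.3.3 gave 11 comparisons: untreated strains with the experiment as a block, natural splines (3 df) on time for the stress courses, both strains in 1 fit, and slopes of log2 level on time over 28 decay arrays. Adjusted p (Benjamini-Hochberg, 5716 probe sets) had a threshold of 0.05. The size of a stress course is its largest difference from 0 min, a selected maximum, and its sign gives the direction of a call. The fits were tested on simulated data. The 0 min arrays of an experiment pair the strains: with strain means removed they correlated at 0.661, 0.818 and 0.737. Half-lives were fitted in Python 3.11.15 (scipy 1.17.1) as an exponential with a free start. Arrays of 1 culture stand in for replicates, so p-values measure scatter about a curve. Members and gene lists were chosen with earlier results of these data known. The named genes were RPN4, the 3 called members with the largest change each way, the 2 with the smallest, UMP1, ECM29, BLM10, RPN10 and SEM1, and up to 3 called pathway genes per comparison. Other genes named were chosen after their values were seen. No genome or sequence was used here, and a mutant replicate the study describes was not analysed here.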

Additional observations from a re-analysis of the deposited data

How the results depend on the processing

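Alternatives were a filter at the S. pombe background, a prior variance that follows the level, a second quantile normalization, splines of 2 and 4 df, fits of 1 strain, no replicate block, and leaving out each time point or replicate. Of 470 settings for single genes, 438 kept direction and call, 31 lost the call and 1 turned direction (RPN10 in H2O2 in the mutant, -0.29 to 0.17 over the time points left out, 0.17 without the 45 min arrays). Counts of called members that moved by over 1.5 times were few. With the prior variance as a trend, 1 member passed in untreated cells, 16 in H2O2 in the mutant and 1 in the H2O2 strain difference. With 2 df, 0 passed in H2O2 in the mutant. Over the time points left out, the counts in H2O2 were 0 to 7 in the mutant and 18 to 34 in the wild type, and those of the slopes were 0 to 1 for H2O2 against reference in the wild type and 16 to 25 for the reference strain difference. The untreated fit without the replicate block also called 0 members, and leaving out a replicate gave 0 each time. Half-lives from a line through log2 ratios had medians of 27.99 min in the mutant and 35.0 min in the wild type in the reference course, and of 29.5 min in the mutant and 36.6 min in the wild type in H2O2. The cause of these changes was not tested. The number of arrays limits the precision.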
